A study of Mus musculus with 8 samples.

Results

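The genes described here encode the receptors for serotonin (Htr), dopamine (Drd), noradrenaline and adrenaline (Adra, Adrb), acetylcholine (the muscarinic Chrm and the nicotinic Chrn) and histamine (Hrh). They were chosen by gene symbol on the array, under a rule that uses no values but was set with earlier results of these data known. They came to 53 of 34836 gene names, measured by 69 of 55681 probes. RNA came from pooled neurons of the dorsomedial nucleus (DMH, 3 samples), the ventromedial nucleus (VMH, 3 samples) and the arcuate nucleus (Arc, 2 samples) of the hypothalamus. All samples were from 2-month-old female mice of the cross Nkx2-1-CreERT2 x Rosa-ZsGreen. In these mice tamoxifen turns on the fluorescent protein ZsGreen in cells that use the Nkx2-1 gene, and green neurons were cut out under a laser microdissection microscope. ZsGreen then stays on, so a green cell need not still use Nkx2-1, and neurons of these nuclei that never used it were not sought. There was no unlabelled or untreated group, so each nucleus was set against the others. The labels do not tie samples to animals. Where samples of the same nucleus come from the same animal, p-values over them are too small. Where samples of different nuclei share an animal, they are paired, which the reported fit does not take into account. The p-values reflect sample-to-sample spread, part of which may be technical.

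Most of these receptors are G protein-coupled. Htr1, Htr5, Adra2, Drd2, Drd3, Drd4, Chrm2, Chrm4, Hrh3 and Hrh4 receptors couple mainly to Gi and Go proteins and usually damp a neuron. Htr2, Adra1, Chrm1, Chrm3, Chrm5 and Hrh1 receptors act through Gq, while Htr4, Htr6, Htr7, Adrb, Drd1, Drd5 and Hrh2 receptors raise cyclic AMP through Gs. The Htr3 and Chrn proteins are instead subunits of cation channels opened by serotonin and by acetylcholine. In the mediobasal hypothalamus serotonin is best known for curbing food intake, through Htr2c and Htr1b among others, and histamine and noradrenaline adjust arousal, feeding and heat production.

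Of the 53 receptor genes, 33 were well above background on all 8 arrays, 9 on none and 11 on some. The mark of a probe well above background is that of the scanner software, and a probe without it has only an upper bound. Those on none included the serotonin receptor genes Htr1f, Htr2b and Htr5b, the nicotinic subunit genes Chrna3, Chrna5 and Chrnb3, and the dopamine receptor genes Drd1a and Drd5. A gene was tested if its probe had this mark on each array of 1 nucleus or more. This held for 38 genes: 10 of 14 serotonin, 11 of 16 nicotinic, 7 of 9 adrenergic, 4 of 5 muscarinic, 3 of 4 histamine and 3 of 5 dopamine receptor genes. The other 6 were not tested: Adra1a had the mark on 2 DMH and 2 VMH arrays, Hrh2 on 2 VMH arrays, Chrm3 on 1 DMH and 1 VMH array, Chrnb1 on 2 DMH, 2 VMH and 1 Arc arrays, Chrnb4 on 2 DMH and 1 Arc arrays, and Htr5a on 2 DMH and 1 VMH arrays. Among the 38, Htr1b, Htr3b, Chrm1, Chrm2 and Adrb3 were not well above background on every array, so they entered through the nuclei where they were brighter. Where a gene had several probes (14 genes), the brightest stood for it.

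**Figure D1:**
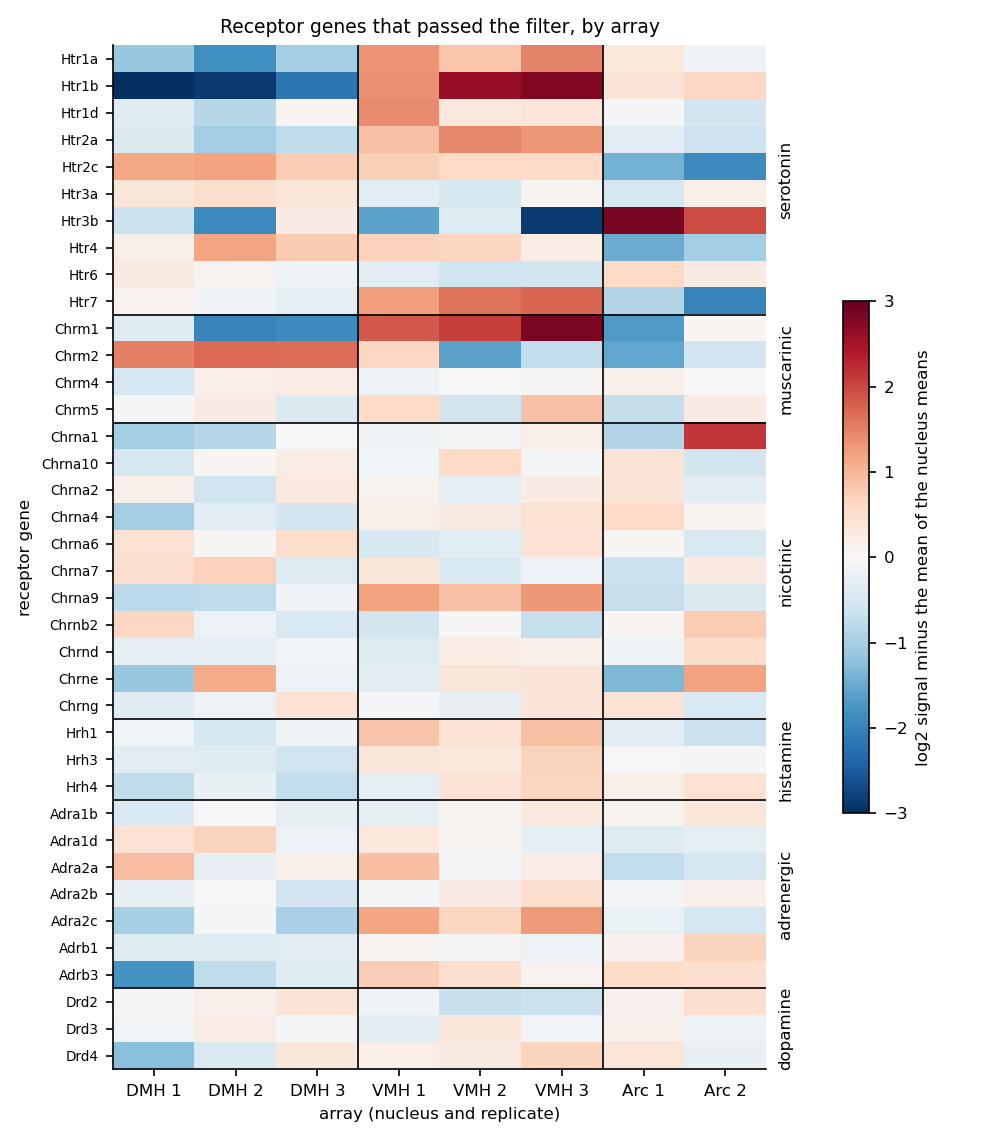
Log2 signal of the 38 receptor genes tested (rows, by family) on each array (columns), as the difference from the mean of the 3 nucleus means, with colours that stop at -3 and 3. Htr1b, Htr1a, Htr2a, Htr7, Chrm1 and Chrna9 are red on all 3 VMH arrays, and Htr2c, Htr4 and Htr7 are blue on both Arc arrays.

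Marker genes of each nucleus were listed with earlier results of these data known, so they are no independent check of the labels. Against the mean of the other nuclei, all 6 Arc markers were higher in Arc, all 5 VMH markers in VMH and all 5 DMH markers in DMH (limma, adjusted p under 0.05). Against Arc alone, 4 of the 5 DMH markers were called higher in DMH and 3 of the 5 VMH markers in VMH. All 6 general neuron markers were well above background on all 8 arrays, but so were 8 of 9 astrocyte, 6 of 8 oligodendrocyte and 7 of 8 microglia markers. The summed signal of the microglia markers, in units of the array's 75th percentile, ranged over 111.7 to 149.5 in DMH, 159.3 to 188.2 in VMH and 211.9 to 242.9 in Arc, while no microglia marker passed the test in Arc (2 of 8 at an unadjusted p under 0.05). Itgam and Csf1r were the brightest of these markers and set the order of the sums. Others ran differently: Cx3cr1 averaged -0.51 in DMH, -1.59 in VMH and -0.85 in Arc on the log2 scale. The corresponding sums of the astrocyte markers were 43.07 to 56.48 in DMH, 50.31 to 60.81 in VMH and 47.53 to 57.24 in Arc. Those of the oligodendrocyte markers were 14.88 to 20.6 in DMH, 19.11 to 28.91 in VMH and 9.01 to 17.99 in Arc, and those of the neuron markers 160.7 to 197.3 in DMH, 199.4 to 246.4 in VMH and 238.8 to 245.6 in Arc. The neuron marker Syt1 was lower in Arc (-1.48 ± 0.17, adjusted p = 0.0156). In DMH the astrocyte marker Gjb6 was higher (1.19 ± 0.18, adjusted p = 0.0356) and the tanycyte marker Col23a1 lower (-1.83 ± 0.28, adjusted p = 0.0356). The endothelial sums were 2.57 to 3.48 in DMH, 3.13 to 3.41 in VMH and 3.97 to 4.36 in Arc, and the tanycyte sums 2.07 to 3.59 in DMH, 3.18 to 4.10 in VMH and 3.88 to 4.84 in Arc. Their part in the differences below was not tested. In such pools, fewer cells of a type and less RNA per cell cannot be told apart.

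In VMH, 6 of 38 receptor genes were higher than the mean of the other nuclei and none was lower (limma, adjusted p under 0.05). Over all 27421 genes tested, 1.34% were called in this comparison and 0.872% were called higher. The 6 genes were Htr1b, Htr1a, Htr2a, Htr7, Chrm1 and Chrna9, so 4 of the 10 serotonin receptor genes tested were among them. Chrm1 had entered the test through VMH alone. The median difference was 0.99 for the serotonin, 0.65 for the histamine, 0.36 for the adrenergic, 0.20 for the muscarinic, 0.03 for the nicotinic and -0.01 for the dopamine receptor genes tested. At an unadjusted p under 0.05 there were 15 receptor genes, 12 of them higher, against 13.1% of all genes in either direction. The median difference of the 38 genes was 0.29 on the log2 scale, against 0.01 over all genes. The arrays of VMH lay above all other arrays for 10 of the 38, against 5.48% of all genes, and below them for 2 (Htr6 and Drd2), against 4.03%. Of the 6 calls, 1 was kept without VMH replicate 2, 1 without VMH replicate 3 and 3 without VMH replicate 1, and 4 or 5 were kept without any DMH or Arc array.

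The probes behind the called genes are given by their first 30 of 60 bases, 5′ to 3′, with their positions in mouse build mm9 as the array files state them, so that each value can be traced to the transcript stretch it read. The Htr4 probe is not printed.
Htr1b, chr9:81525015-81525074, minus strand: catcatctacaccatgtccaatgaggactt
Htr1a, chr13:106237236-106237295, plus strand: agagggcatcaaatggttttgcgttatatc
Htr2a, chr14:75106454-75106513, plus strand: agaaaccgggctgccatgttgttgatgggt
Htr7, chr19:36033339-36033398, minus strand: gtgtacaaattcctgagctgcagattcgct
Htr2c, chrX:143629079-143629138, plus strand: aatttagagctgccggtcaatccctctaat
Chrm1, chr19:8755342-8755401, plus strand: tggtaagggaagttcccaaagcctaatgaa
Chrna9, brightest probe, chr5:66335518-66335577, plus strand: gagcctgcttctcaatgagccccccaaaat
Chrna9, further probe, chr5:66368450-66368509, plus strand: tgtcatgaccgtcttgatcatagcaagagc
Adrb3, brightest probe, chr8:28337864-28337923, minus strand: agttttcatcgccctgaactggctgggcta
Adrb3, further probe, chr8:28336268-28336327, minus strand: gggttcataggaagaagtcaaactattgga
The 2 Chrna9 probes and the 2 Adrb3 probes are shown because, within each gene, they gave different results, described below.

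Htr1b, the Gi-coupled receptor that sits on axon terminals and limits transmitter release, was highest in VMH, and in DMH its probe did not clear background. All levels below are log2 signals relative to the array's 75th percentile. Htr1b read -2.17, -0.93 and -0.77 in VMH, against -3.16 and -2.94 in Arc and -6.79, -6.42 and -5.72 in DMH. Every VMH array lay above both Arc arrays, and no DMH array was well above background. VMH was at least 5.65-fold above the mean of Arc and DMH (limma, adjusted p = 0.00906), and DMH was at least 9.41-fold below VMH (adjusted p = 0.00319). DMH was also at least 2.77-fold below Arc (adjusted p = 0.0416), and VMH against Arc gave 1.76 ± 0.47 on the log2 scale (SE; adjusted p = 0.160). The calls for VMH against the mean, DMH against the mean and DMH against VMH were kept without any single array (adjusted p at most 0.04997), while DMH against Arc was lost without any array other than VMH replicate 1 (adjusted p 0.0253 to 0.120). That last call was also lost with normexp background correction, with the slide row blocked (taken as a block in the fit) and without the dim-probe filter (adjusted p up to 0.146).

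Htr1a, the Gi-coupled receptor that opens potassium channels on cell bodies, followed the same order. It read -0.85, -1.37 and -0.71 in VMH, against -1.88 and -2.29 in Arc and -3.33, -4.04 and -3.23 in DMH. The 3 nuclei did not overlap, and all 8 arrays were well above background. VMH exceeded the mean of Arc and DMH by 1.83 ± 0.26 (adjusted p = 0.0217), and DMH was below VMH by a log2 difference of -2.55 ± 0.29 (adjusted p = 0.00998). The second call was kept in all 17 alternatives. The first was lost without any 1 of the 3 VMH arrays and without Arc replicate 2 (adjusted p up to 0.102), and with the slide row blocked (adjusted p = 0.0545).

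Htr2a, the Gq-coupled receptor bound by classical hallucinogens, set VMH alone apart. It read 1.51, 2.06 and 1.92 in VMH, against 0.30 and 0.02 in Arc and 0.20, -0.39 and -0.12 in DMH. Arc and DMH overlapped, and every VMH array lay above both. The difference of VMH from their mean was 1.80 ± 0.22 (adjusted p = 0.0118). It was 1.67 ± 0.27 against Arc (adjusted p = 0.0391) and, for DMH against VMH, -1.94 ± 0.24 (adjusted p = 0.0137), while DMH against Arc was -0.27 ± 0.27 (adjusted p = 0.663). Without VMH replicate 2 or 3 the difference from the mean missed the threshold (adjusted p up to 0.0635). DMH against VMH missed it without DMH replicate 2 or 3 or VMH replicate 2 or 3 (adjusted p up to 0.0627), and VMH against Arc without any array other than DMH replicate 1 (adjusted p up to 0.131). VMH against Arc also missed it without a filter on dim probes (adjusted p = 0.0654) and with the slide row blocked (adjusted p = 0.0813). Each of these calls was lost with the replicate number as a block.

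Htr7, a Gs-coupled receptor linked to body temperature and circadian timing, was stepped across the nuclei on its brightest probe. It read 0.14, 0.54 and 0.65 in VMH, against -1.99 and -3.11 in Arc and -1.01, -1.21 and -1.36 in DMH. VMH lay above DMH and DMH above Arc with no overlap. VMH exceeded the mean of the others by 2.31 ± 0.28 (adjusted p = 0.0125) and Arc by 2.99 ± 0.35 (adjusted p = 0.0130). The step between DMH and VMH (-1.63 ± 0.31, adjusted p = 0.0595) and that between DMH and Arc (1.35 ± 0.35, adjusted p = 0.141) did not pass. Leaving out VMH replicate 2 or 3 ended the call against the mean (adjusted p up to 0.0637), and leaving out VMH replicate 3 ended that against Arc (adjusted p = 0.0527). Both calls were also lost with the replicate number as a block. A further Htr7 probe was well above background on 2 DMH, 2 VMH and 1 Arc arrays and was not tested. It averaged -3.96 in DMH, -3.50 in VMH and -3.90 in Arc, and the nuclei overlapped on it.

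**Figure D2:**
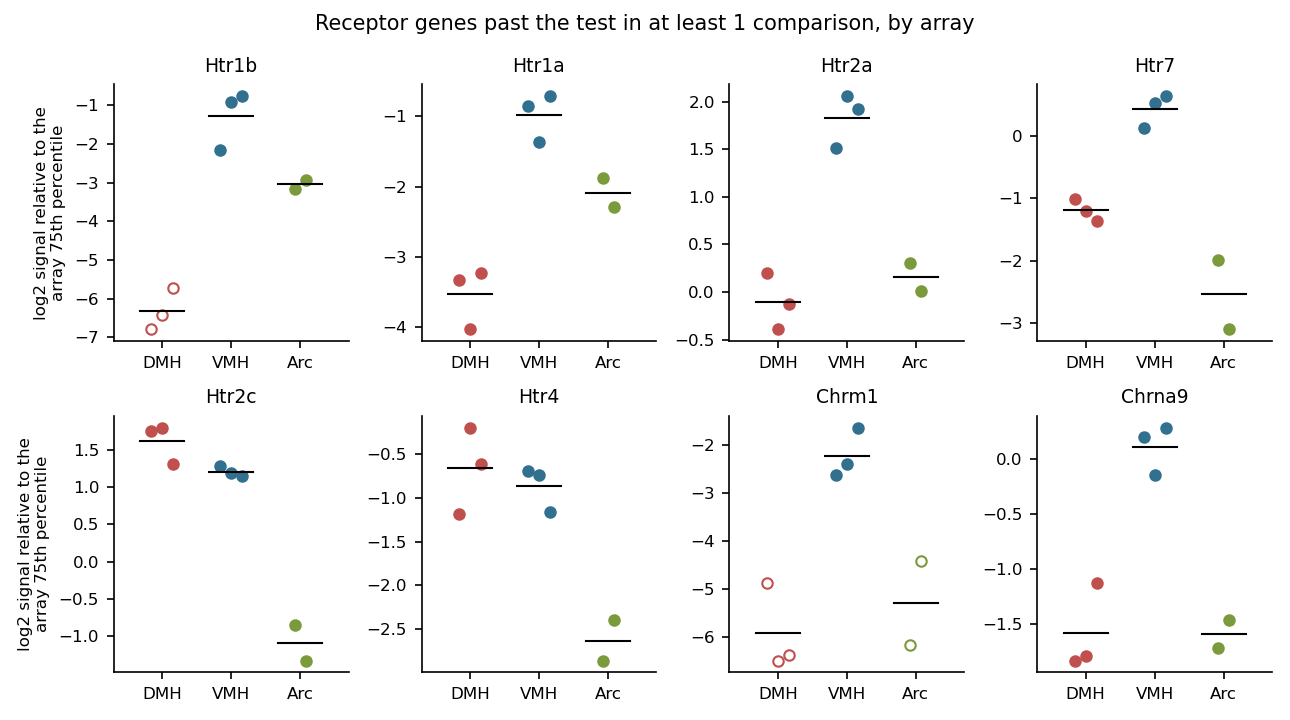
Log2 signal relative to the array's 75th percentile (vertical axis) for the 8 receptor genes past the test in at least 1 comparison; each point is an array and each line a nucleus mean. Open points mark a nucleus in which no array was well above background (Htr1b in DMH at -6.79 to -5.72, Chrm1 in DMH and Arc).

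Promoter sequence was looked at for the 4 serotonin receptor genes called higher in VMH than the mean of the other nuclei and for Htr2c, which was not called in that comparison. The 250 bases before the annotated start are printed from RefSeq (build GRCm38.p6), 5′ to 3′ on the strand of the gene.
Htr1b, chr9:81633833-81634082, minus strand: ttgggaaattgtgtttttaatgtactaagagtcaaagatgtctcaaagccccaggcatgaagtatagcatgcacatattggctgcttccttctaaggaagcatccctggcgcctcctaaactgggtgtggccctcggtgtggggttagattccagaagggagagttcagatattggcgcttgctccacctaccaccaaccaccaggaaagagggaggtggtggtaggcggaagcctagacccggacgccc
Htr1a, chr13:105443443-105443692, plus strand: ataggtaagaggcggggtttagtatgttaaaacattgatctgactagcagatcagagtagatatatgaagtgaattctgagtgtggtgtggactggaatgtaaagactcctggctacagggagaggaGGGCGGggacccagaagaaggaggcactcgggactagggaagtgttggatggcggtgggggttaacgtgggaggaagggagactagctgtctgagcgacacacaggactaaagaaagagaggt
Htr2a, chr14:74640624-74640873, plus strand: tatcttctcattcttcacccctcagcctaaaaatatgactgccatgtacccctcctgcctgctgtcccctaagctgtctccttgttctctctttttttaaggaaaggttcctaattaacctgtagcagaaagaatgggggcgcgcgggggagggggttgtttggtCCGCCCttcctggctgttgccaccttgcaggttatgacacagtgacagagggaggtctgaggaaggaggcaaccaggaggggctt
Htr7, chr19:36057361-36057610, minus strand: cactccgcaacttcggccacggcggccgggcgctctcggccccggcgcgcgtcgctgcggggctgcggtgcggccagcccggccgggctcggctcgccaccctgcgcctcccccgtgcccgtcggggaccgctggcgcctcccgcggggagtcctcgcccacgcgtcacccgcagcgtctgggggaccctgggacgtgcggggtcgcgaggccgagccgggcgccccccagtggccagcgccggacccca
Htr2c, chrX:146962263-146962512, plus strand: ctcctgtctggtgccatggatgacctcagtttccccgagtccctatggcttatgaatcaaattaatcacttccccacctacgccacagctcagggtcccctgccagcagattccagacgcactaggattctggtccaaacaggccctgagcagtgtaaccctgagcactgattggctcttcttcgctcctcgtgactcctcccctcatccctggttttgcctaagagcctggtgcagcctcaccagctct
The capitals mark GGGCGG on either strand, the GC box bound by Sp factors. The same windows were searched on both strands for AAGGTCA, a half-site of NR5A factors such as the VMH regulator Nr5a1, and for CAAGTG, a core bound by NK2 homeobox factors such as Nkx2-1. The GC box was found once each in Htr1a and Htr2a, and these letters were in no other window printed. AAGGTCA and CAAGTG were in none of the 5, so no motif overlapped another. Over all 32851 promoters, 32.7% held the GC box, 4.08% AAGGTCA and 11.6% CAAGTG. A promoter was listed for 40 of the 53 receptor genes, of which 22 held the GC box, 0 AAGGTCA and 3 CAAGTG (Drd1, Hrh3 and Htr3b). Chrm1 had no entry.

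In Arc, 3 of 38 receptor genes were lower than the mean of VMH and DMH and none was higher, while 0.613% of all genes were called and 0.419% were called lower. All 3 were serotonin receptor genes: Htr2c, Htr7 and Htr4. The median of the 38 was -0.01, against 0.04 over all genes. At an unadjusted p under 0.05 there were 11, of which 8 were lower, against 15.7% of all genes in either direction. Both Arc arrays lay below all others for 5 of the 38 (6.66% of all genes) and above all others for 2 (10% of all genes). Of the 3 calls, Htr2c alone was kept without DMH replicate 2 or 3, any 1 VMH array or Arc replicate 2, and likewise without a filter on dim probes or with the slide row blocked.

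Htr2c, the Gq-coupled receptor through which several appetite suppressants act, read -0.85 and -1.33 in Arc, against 1.29, 1.19 and 1.15 in VMH and 1.75, 1.80 and 1.31 in DMH. Both Arc arrays lay far below the other 6, and every DMH array lay above every VMH array. Arc differed from the mean of VMH and DMH by -2.50 ± 0.22 (adjusted p = 0.00526). The difference was 2.71 ± 0.25 for DMH against Arc (adjusted p = 0.00825) and 2.29 ± 0.25 for VMH against Arc (adjusted p = 0.0105). These 3 calls were kept without any single array (adjusted p at most 0.0434). DMH against VMH was 0.41 ± 0.22 (adjusted p = 0.468). DMH was higher than the mean of Arc and VMH by 1.56 ± 0.20 (adjusted p = 0.0208). That call was lost without DMH replicate 1 or 2 or VMH replicate 2 or 3 (adjusted p up to 0.0925). It was also lost with the slide row blocked (adjusted p = 0.0564) and with the replicate number as a block. In Arc, 1 further Htr2c probe was not well above background on either array and was at least 2.09-fold lower (adjusted p = 0.211). The other gave -1.45 ± 0.69 in Arc (adjusted p = 0.376), the same direction without passing the test, but turned the direction for DMH, to -0.29 ± 0.62 against the mean (adjusted p = 0.860) and -1.35 ± 0.69 against VMH (adjusted p = 0.459). Taking the mean of the 3 probes ended all 4 calls (adjusted p up to 0.172).

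Htr4, a Gs-coupled receptor whose brightest probe matches chromosome 18, read -2.87 and -2.40 in Arc, against -0.70, -0.74 and -1.16 in VMH and -1.18, -0.20 and -0.61 in DMH. The Arc arrays were the lowest, and VMH and DMH overlapped. A further Htr4 probe was well above background on 2 DMH arrays, 1 VMH array and no Arc array and was not tested. It averaged -3.51 in DMH, -3.84 in VMH and -4.20 in Arc, and the nuclei overlapped on it. On the brightest probe the difference of Arc was -1.87 ± 0.30 (adjusted p = 0.0458), and the call was lost without any array other than DMH replicate 1 (adjusted p up to 0.155). It was also lost with normexp (adjusted p = 0.0595), without a filter on dim probes (adjusted p = 0.0761) and with the slide row blocked (adjusted p = 0.0885). The replicate number as a block ended this call and the Htr7 call in Arc. For Htr7 the corresponding difference of Arc was -2.17 ± 0.31 (adjusted p = 0.0323), lost without any array other than Arc replicate 1 (adjusted p up to 0.0815), without a filter (adjusted p = 0.0596) and with the slide row blocked (adjusted p = 0.0713).

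The other serotonin receptor genes tested were Htr1d, Htr3a, Htr3b and Htr6, and none passed in any comparison. Htr1d, a Gi-coupled receptor and target of migraine drugs, read -0.73, -1.83 and -1.79 in VMH, against -2.19 and -2.70 in Arc and -2.54, -3.01 and -2.09 in DMH, with VMH on top (1.05 ± 0.34, adjusted p = 0.232). Htr6, a Gs-coupled receptor, read -1.27, -1.53 and -1.49 in VMH, against -0.33 and -0.68 in Arc and -0.65, -0.85 and -1.06 in DMH, with VMH lowest (-0.75 ± 0.18, adjusted p = 0.122). A further Htr6 probe, well above background on all arrays, went the other way in VMH (0.39 ± 0.46, adjusted p = 0.800). Htr1d and Htr6 are described after their values were seen. Htr3b, a subunit of the serotonin-gated channel that needs Htr3a to work, is described after its values were seen. It read -0.35 and -1.23 in Arc, against -4.81, -3.60 and -6.07 in VMH and -3.84, -5.11 and -2.95 in DMH. It was well above background on 2 of 2 Arc, 1 of 3 VMH and 2 of 3 DMH arrays, and both Arc arrays lay above all others. The difference of Arc was 3.61 ± 0.72, which did not pass (adjusted p = 0.0891). Its partner gene Htr3a read -1.54 and -0.85 in Arc, against -1.35, -1.51 and -0.93 in VMH and -0.66, -0.48 and -0.66 in DMH, so Arc and VMH overlapped.

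In DMH, 3 of 38 receptor genes differed from the mean of Arc and VMH: Htr2c was higher, and Htr1b (at least 5.11-fold, adjusted p = 0.00838) and Htr1a (-2.00 ± 0.26, adjusted p = 0.0233) were lower. Over all genes 0.842% were called, 0.368% higher and 0.474% lower. The median of the 38 was -0.22, against -0.04 over all genes. At an unadjusted p under 0.05 there were 15, of which 11 were lower, against 16.3% of all genes in either direction. The arrays of DMH lay above all others for 3 of the 38 (3.6% of all genes) and below all others for 6 (5.67% of all genes). Of the 3 calls, 1 was kept without DMH replicate 1, DMH replicate 2 or VMH replicate 3, and 1 with the slide row blocked. The Htr1a call was lost without any 1 DMH array, VMH replicate 1 or 3, or Arc replicate 1 (adjusted p up to 0.0873), and with the slide row blocked (adjusted p = 0.0608).

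**Figure D3:**
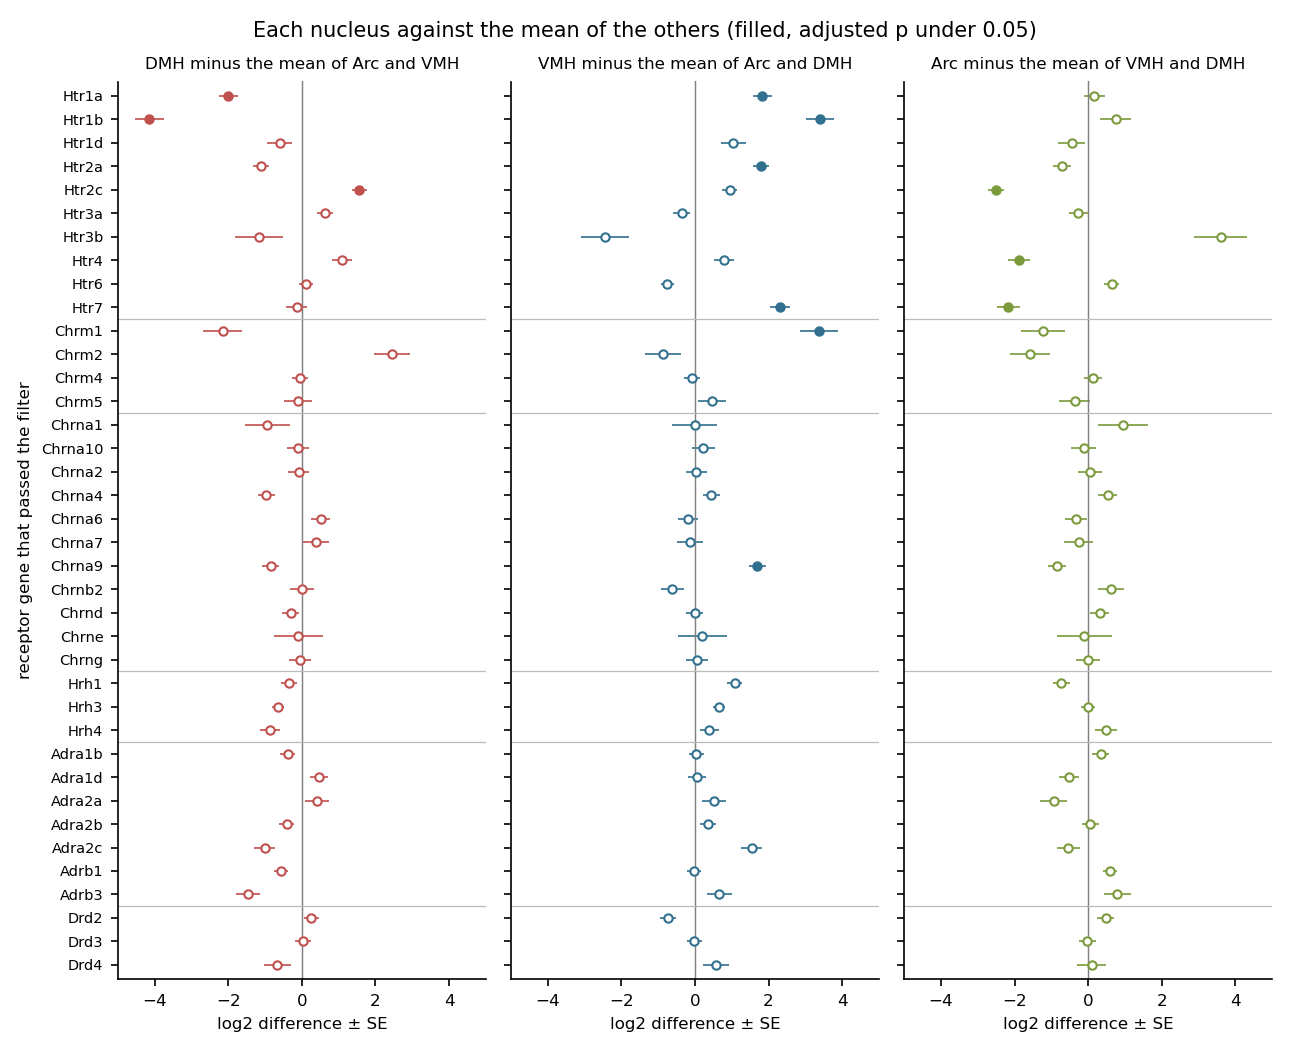
Log2 difference ± SE (horizontal axis) of the 38 receptor genes tested, with a panel for each nucleus set against the mean of the remaining pair; filled points passed an adjusted p under 0.05. VMH holds 6 filled points right of 0, Arc 3 left of 0, and DMH 1 right and 2 left.

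Between pairs, DMH was lower than VMH in 5 of 38 receptor genes (Htr1b, Htr1a, Htr2a, Chrm1 and Chrna9) and higher in none (4 at an unadjusted p under 0.05), against 1.23% of all genes called and 0.788% called lower. DMH arrays lay above every VMH array for 5 of the 38 (9.19% of all genes) and below for 13 (12.5%). VMH was higher than Arc in 4 (Htr2c, Htr7, Htr2a and Chrna9) and lower in none (3 at an unadjusted p under 0.05), against 0.977% called, 0.66% higher and 0.317% lower. VMH arrays lay above both Arc arrays for 14 (16.5% of all genes) and below for 5 (18.5%). DMH and Arc differed in 2, Htr2c higher and Htr1b lower in DMH, against 0.419% called, 0.244% higher and 0.175% lower. DMH arrays lay above both Arc arrays for 8 (13.6% of all genes) and below for 9 (19.8%). These comparisons share arrays. Of the 5 calls for DMH against VMH, 3 were kept without DMH replicate 1 or 3 or VMH replicate 1, and 2 without DMH replicate 2 or VMH replicate 2 or 3. Of the 4 for VMH against Arc, 2 were kept without DMH replicate 2, VMH replicate 1 or 2, or either Arc array, and 1 without VMH replicate 3. Of the 2 for DMH against Arc, 1 was kept without any single array other than VMH replicate 1.

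Among the 4 muscarinic receptor genes tested, Chrm1 alone passed. Chrm1, the Gq-coupled receptor of forebrain principal neurons, read -2.63, -2.40 and -1.64 in VMH, against -6.17 and -4.40 in Arc and -4.86, -6.48 and -6.36 in DMH. It was well above background on the 3 VMH arrays and on no other array. VMH was at least 4.12-fold above the mean of Arc and DMH (adjusted p = 0.0292), and DMH at least 4.92-fold below VMH (adjusted p = 0.0331). VMH against Arc did not pass (at least 3.455-fold, adjusted p = 0.0936). A second Chrm1 probe was also well above background on the VMH arrays alone and gave at least 3.50-fold (adjusted p = 0.0870). Each of these probes entered the fit through VMH alone, where it was bright. Their p-values are therefore no independent support for a difference. The call for VMH was lost without any array other than Arc replicate 2 (adjusted p up to 0.228), and that for DMH against VMH without any 1 DMH or VMH array (adjusted p up to 0.208). Quantile normalization and leaving out the filter on dim probes also ended both (adjusted p 0.0520 to 0.0673). The replicate number as a block ended both as well.

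Chrm2, a Gi-coupled autoreceptor of cholinergic neurons, read -3.15, -2.98 and -2.98 in DMH, against -6.22 and -5.23 in Arc and -4.04, -6.28 and -5.41 in VMH. It was well above background on 3 DMH arrays, 1 VMH array and no Arc array, and the DMH arrays lay above all others. DMH was at least 3.01-fold above the mean of Arc and VMH, which did not pass (limma, adjusted p = 0.0787). Chrm4, a Gi-coupled receptor, read -0.49, -0.33 and -0.28 in VMH, against -0.16 and -0.30 in Arc and -0.85, -0.12 and -0.11 in DMH, so all 3 nuclei overlapped. For VMH its 95% interval was -0.58 to 0.44. Chrm5, a Gq-coupled receptor known from dopamine neurons, gave 0.47 ± 0.38 in VMH (adjusted p = 0.676; 95% interval -0.41 to 1.36).

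Of 11 nicotinic subunit genes tested, Chrna9 alone passed. Its protein is best known from cochlear hair cells, where it works with Chrna10. Chrna9 read 0.19, -0.15 and 0.28 in VMH, against -1.72 and -1.46 in Arc and -1.83, -1.79 and -1.13 in DMH. Every VMH array lay above all others, and Arc and DMH overlapped. VMH exceeded their mean by 1.70 ± 0.23 (adjusted p = 0.0165) and Arc by 1.70 ± 0.28 (adjusted p = 0.0413), and DMH against VMH gave -1.69 ± 0.25 (adjusted p = 0.0259). Leaving out any 1 VMH array or Arc replicate 1 ended the call against the mean (adjusted p up to 0.0831). That for DMH against VMH ended without DMH replicate 1 or 2 or any 1 VMH array (adjusted p up to 0.1003), and that for VMH against Arc without any array other than DMH replicate 3 (adjusted p up to 0.143). With the slide row blocked, DMH against VMH (adjusted p = 0.0699) and VMH against Arc (adjusted p = 0.0868) did not pass. VMH against Arc also did not pass without a filter on dim probes (adjusted p = 0.0697) or with the replicate number as a block. The mean of both Chrna9 probes ended all 3 calls (adjusted p up to 0.152).

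The difference was seen with 1 of the 2 Chrna9 probes. The further probe read -3.12, -2.60 and -2.93 in VMH, against -3.15 and -2.51 in Arc and -3.36, -3.04 and -3.37 in DMH, all well above background. The 3 nuclei overlapped on it. It gave 0.16 ± 0.23 for VMH against the mean (adjusted p = 0.844) and -0.05 for VMH against Arc, in a fit of all 41478 probes. The 2 probes lie at different places on chromosome 5, as printed above. What transcript each reads was not tested.

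The other nicotinic subunit genes lay closer together. Chrna4, which with Chrnb2 forms the main high-affinity nicotine receptor of the brain, read -1.88, -1.15 and -1.39 in DMH, against -0.22 and -0.72 in Arc and -0.66, -0.56 and -0.37 in VMH. The DMH arrays were the lowest, and the difference of -0.97 ± 0.23 did not pass (adjusted p = 0.127). A further Chrna4 probe went the other way (1.30 ± 0.59, adjusted p = 0.342). Chrna10 gave 0.23 ± 0.31 for VMH (adjusted p = 0.833). The rest tested were Chrna1, Chrna2, Chrna6, Chrna7, Chrnb2, Chrnd, Chrne and Chrng; with Chrna1, the delta, epsilon and gamma subunits form the receptor of muscle. Apart from Chrna9, the differences of the nicotinic genes ran from -0.97 (Chrna4) to 0.51 (Chrna6) in DMH, from -0.61 (Chrnb2) to 0.44 (Chrna4) in VMH, and from -0.33 (Chrna6) to 0.95 (Chrna1) in Arc. Chrna1 read -3.15 and -0.14 in Arc, against -2.41, -2.34 and -2.09 in VMH and -3.30, -3.13 and -2.26 in DMH. The Arc replicates lay apart, 1 of them above every other array.

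**Figure D4:**
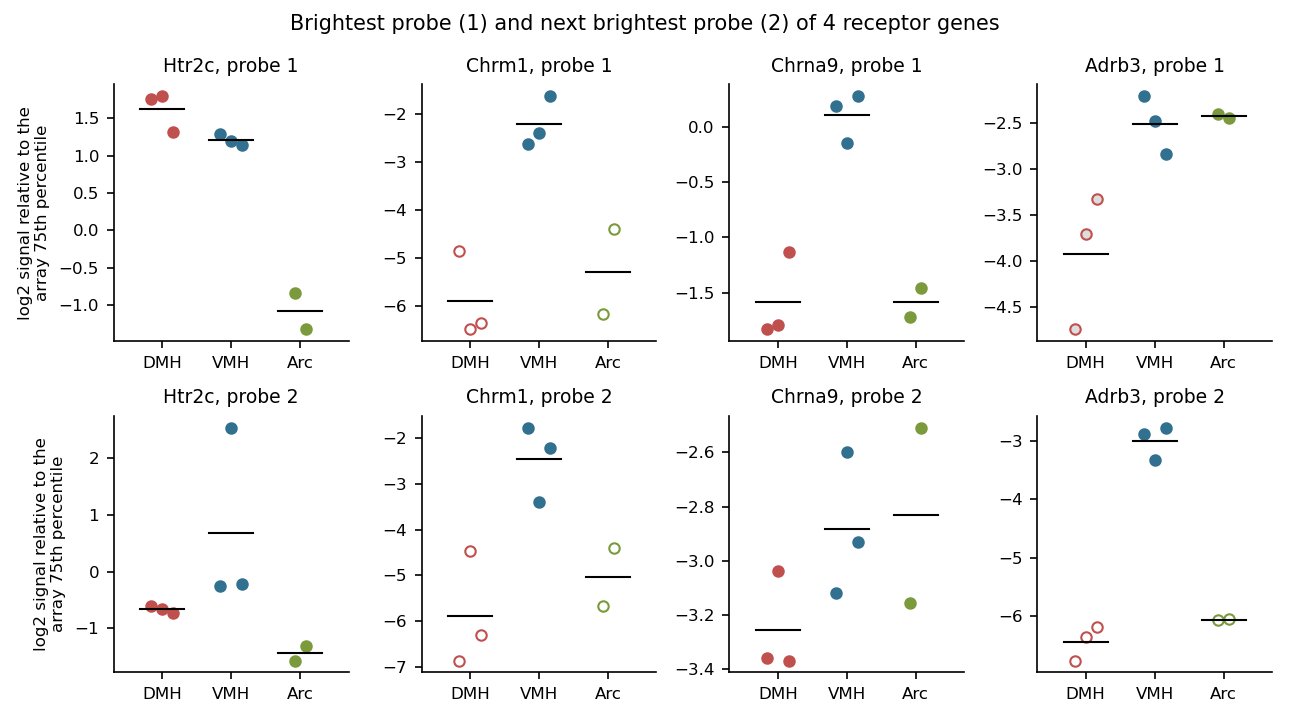
Log2 signal relative to the array's 75th percentile for the brightest probe (upper row) and the next brightest probe (lower row) of 4 receptor genes; points are arrays, lines nucleus means, open points a nucleus with no array well above background and grey-filled points a nucleus with some. The Chrna9 probes differ, with 1 clear VMH step above, and the lower Adrb3 probe is filled in VMH alone, at -3.33 to -2.77.

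None of the 7 adrenergic receptor genes tested passed in any comparison (limma; 1 at an unadjusted p under 0.05 in VMH and 3 in DMH). Adra2c, a Gi-coupled receptor that holds back noradrenaline release, came nearest: it read 1.01, 0.47 and 1.11 in VMH, against -0.36 and -0.69 in Arc and -1.17, -0.22 and -1.14 in DMH. All VMH arrays lay above all others, and Arc and DMH overlapped. Its difference of 1.55 ± 0.29 missed the threshold (adjusted p = 0.0517; 95% interval 0.88 to 2.21). Adra1b, a Gq-coupled receptor, read 5.75, 6.20 and 5.90 in DMH, against 6.31 and 6.56 in Arc, with a difference of -0.48 ± 0.25 (adjusted p = 0.389). Adra2b, a Gi-coupled receptor, read 5.86, 6.11 and 5.53 in DMH, against 6.07, 6.35 and 6.64 in VMH, and the nuclei overlapped (-0.52 ± 0.24, adjusted p = 0.403). Against the mean of the other nuclei, Adra1d, Adra2a and Adrb1 gave 0.05 ± 0.24, 0.52 ± 0.33 and -0.03 ± 0.18 in VMH (adjusted p = 0.962, 0.564 and 0.975). Adra2a had both Arc arrays below all others, and Adrb1 had them above all others, without passing. The 2 Adra1d probes gave opposite directions in Arc, with -0.52 ± 0.27 on the brightest and 0.45 ± 0.24 on the further probe (adjusted p = 0.400 and 0.430).

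Adrb3, the Gs-coupled receptor of fat cells, was measured by probes that differed. The brightest read -4.74, -3.70 and -3.32 in DMH, against -2.40 and -2.44 in Arc and -2.21, -2.48 and -2.84 in VMH, with DMH below all others (-1.46 ± 0.33, adjusted p = 0.119). The further probe read -2.89, -3.33 and -2.77 in VMH, against -6.08 and -6.05 in Arc and -6.77, -6.36 and -6.20 in DMH. It was well above background on the 3 VMH arrays and no other. In the fit of all probes VMH was at least 2.41-fold above the mean of Arc and DMH on it (adjusted p = 0.00158) and at least 2.02-fold above Arc (adjusted p = 0.00523). DMH was at least 2.87-fold below VMH (adjusted p = 0.00210). This probe entered the fit through VMH alone, where it was bright, and was looked at after seeing the data. Its p-values are therefore no independent support for a difference. On the brightest probe VMH and Arc overlapped (VMH against Arc -0.09 ± 0.41, adjusted p = 0.950). Both probes are on the minus strand of chromosome 8, and which transcript each reads was not tested.

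None of the 3 histamine receptor genes tested passed (limma; 2 at an unadjusted p under 0.05 in VMH), though 2 had all VMH arrays on top on the brightest probe. Hrh1, the Gq-coupled wake-promoting receptor blocked by sedating antihistamines, read 1.35, 0.93 and 1.38 in VMH, against 0.18 and -0.15 in Arc and 0.42, -0.02 and 0.41 in DMH. Its difference was 1.08 ± 0.20 (adjusted p = 0.0546), and further Hrh1 probes gave 1.30 ± 0.39 and 1.48 ± 0.53 (adjusted p = 0.210 and 0.298). On each of these further probes VMH overlapped another nucleus. Hrh3, a Gi-coupled autoreceptor that limits histamine release, read 3.54, 3.53 and 3.30 in DMH, against 4.22, 4.20 and 4.55 in VMH. The 2 nuclei did not overlap, and the difference was -0.87 ± 0.19 (adjusted p = 0.0896). Hrh4, known mainly from blood cells, read 1.19, 1.73 and 1.21 in DMH, against 2.13 and 2.42 in Arc and 1.66, 2.40 and 2.60 in VMH. DMH lay below Arc and overlapped VMH, with -0.87 ± 0.27 for DMH against the mean (adjusted p = 0.195).

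None of the 3 dopamine receptor genes tested passed (limma; 1 at an unadjusted p under 0.05 in VMH). Drd2, the Gi-coupled receptor targeted by antipsychotic drugs, read -0.10, -0.63 and -0.60 in VMH, against 0.18 and 0.54 in Arc and 0.01, 0.20 and 0.43 in DMH. All VMH arrays lay below all others, and the difference of -0.73 ± 0.21 did not pass (adjusted p = 0.179). Drd3, a Gi-coupled receptor of the limbic striatum, read -1.48, -1.18 and -1.46 in DMH, against -1.25 and -1.57 in Arc and -1.72, -1.02 and -1.47 in VMH, and all nuclei overlapped. It gave 0.03 ± 0.21 for DMH against the mean (adjusted p = 0.959; 95% interval -0.46 to 0.53). Drd4, a Gi-coupled receptor, read -2.70, -1.88 and -1.12 in DMH, against -1.26, -1.17 and -0.78 in VMH, which overlapped, and gave -0.83 ± 0.40 for DMH against VMH (adjusted p = 0.425). The Gs-coupled receptor genes Drd1a and Drd5 were well above background on no array.

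Genes that make, carry and break down the transmitters were compared alongside. Of 24 such genes 19 could be tested, and 2 differed in DMH (1 higher, 1 lower), 2 in VMH (both lower) and 1 in Arc (higher), with medians of -0.26, -0.14 and 0.38. Over all genes 0.842%, 1.34% and 0.613% were called in these comparisons. Th, the rate-limiting enzyme of catecholamine synthesis, read 1.86, 2.54 and 2.08 in VMH, against 4.34 and 3.95 in Arc and 3.42, 3.70 and 3.99 in DMH. VMH did not overlap the others, and its difference was -1.77 ± 0.23 (adjusted p = 0.0151). Gch1, which makes the cofactor of Th and Tph2, read -6.55, -6.40 and -6.54 in VMH, against -1.36 and -3.05 in Arc and -0.56, -1.32 and -2.22 in DMH. It was not well above background on any VMH array, where it was at least 5.42-fold below the mean of Arc and DMH (adjusted p = 0.00559). DMH was at least 3.60-fold above the mean of Arc and VMH (adjusted p = 0.0381). DMH and Arc overlapped, however, and DMH against Arc did not pass.

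Slc18a3, the vesicular acetylcholine transporter, read -0.89 and -0.11 in Arc, against -2.34, -2.47 and -1.90 in VMH and -3.26, -2.79 and -2.72 in DMH. The 3 nuclei did not overlap. Arc was higher by 2.08 ± 0.29 (adjusted p = 0.0297) and DMH lower by a difference of -1.55 ± 0.26 (adjusted p = 0.0457). Chat, the acetylcholine-making enzyme encoded at the same locus, was well above background on 2 DMH, 1 VMH and 1 Arc arrays and was not tested. Slc5a7, the choline carrier, did not pass (-0.97 ± 0.24 in DMH, adjusted p = 0.145).

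The carriers of dopamine were high on both Arc arrays without passing the test. Slc18a2, the vesicular monoamine transporter, read 0.06 and 0.51 in Arc, against -2.16, -1.84 and -1.10 in VMH and -1.75, -2.13 and -0.82 in DMH (1.92 ± 0.40, adjusted p = 0.0944). Slc6a3, the plasma membrane dopamine transporter, read -1.68 and -2.21 in Arc, against -4.40, -3.68 and -3.94 in VMH and -4.61, -4.08 and -2.54 in DMH (1.93 ± 0.51, adjusted p = 0.153). Both Arc arrays lay above all others for each gene. Hdc, the histamine-making enzyme, read 0.05, -0.36 and -0.20 in VMH, against -1.74 and -2.16 in Arc and 0.02, -2.94 and -1.05 in DMH, so DMH spanned both (1.47 ± 0.59, adjusted p = 0.343). The serotonin-making enzyme gene Tph2 gave -0.31 ± 0.34 in VMH (adjusted p = 0.779). The serotonin transporter gene Slc6a4 and the noradrenaline transporter gene Slc6a2 were well above background on no array.

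None of the breakdown enzymes described here passed. In DMH the monoamine oxidase genes Maoa and Maob gave 0.87 ± 0.30 and 1.00 ± 0.26 (adjusted p = 0.230 and 0.152). The acetylcholinesterase gene Ache gave -1.06 ± 0.20 there (adjusted p = 0.0694). Hnmt, which methylates histamine, gave -0.22 ± 0.41 in DMH (adjusted p = 0.837). Ddc, the decarboxylase shared by dopamine and serotonin synthesis, gave -0.59 ± 0.21 (adjusted p = 0.249).

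**Figure D5:**
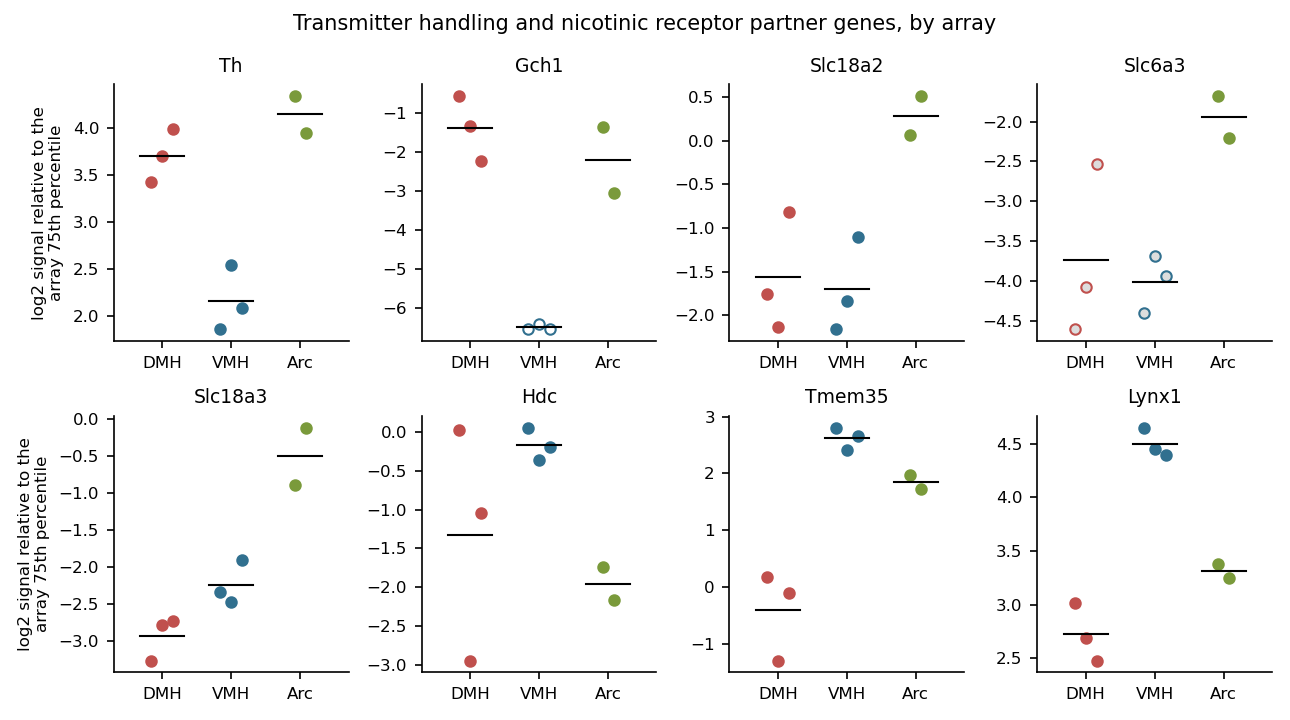
Log2 signal relative to the array's 75th percentile for 6 transmitter handling genes and for Tmem35 and Lynx1; points are arrays, lines nucleus means, open points a nucleus with no array well above background and grey-filled points a nucleus with some. Th and Gch1 are lowest in VMH, Slc18a3 highest in Arc, and Tmem35 and Lynx1 highest in VMH and lowest in DMH.

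Proteins that assemble or modulate nicotinic receptors held 2 called genes of 9 tested, each called in VMH and in DMH. Over all genes 1.34% were called in VMH and 0.842% in DMH. Tmem35 encodes a chaperone needed to build several nicotinic receptors. It read 2.81, 2.41 and 2.66 in VMH, against 1.98 and 1.72 in Arc and 0.17, -1.29 and -0.10 in DMH. Lynx1, a toxin-like protein that damps nicotinic receptors, read 4.65, 4.45 and 4.40 in VMH, against 3.38 and 3.25 in Arc and 3.02, 2.68 and 2.48 in DMH. The 3 nuclei did not overlap for either gene. VMH exceeded the mean of the others by 1.90 ± 0.34 for Tmem35 (adjusted p = 0.0445) and by 1.48 ± 0.18 for Lynx1 (adjusted p = 0.0139). DMH was below the mean of the others by a difference of -2.64 ± 0.34 and -1.18 ± 0.18 (adjusted p = 0.0208 and 0.0381). The medians of the 9 genes were 0.15 in VMH and 0.22 in DMH.

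Downstream of the receptors, none of 12 G protein alpha subunit genes, 7 adenylyl cyclase genes and 8 genes for receptor kinases, arrestins and adaptors passed in any of the 6 comparisons (limma; in VMH against the mean, 2, 2 and 2 at an unadjusted p under 0.05). Their medians in VMH against the mean of Arc and DMH were -0.07, 0.17 and 0.05.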

How the data were processed

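Pooled neurons of 3 nuclei were profiled on 8 one-colour Agilent arrays of 1 slide and 1 scan. Per the file headers, Agilent Feature Extraction 11.5.1.1 made the deposited intensity of each spot (red dye) by subtracting background and removing a spatial trend, with no scaling across arrays. Log2 intensity minus the array's 75th percentile (1806 to 3042 units over the arrays) was used, without outlier spots; 72.4% to 78.7% of probes were well above background. The number of arrays limits the precision.

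Probes marked well above background on each array of 1 nucleus or more were kept (41478), the brightest standing for a gene (27424 genes). A mean per nucleus was fitted with limma 3.58.1 (R 4.3.3; 5 residual and 2.78 prior degrees of freedom), with Benjamini-Hochberg adjustment over all genes per comparison calling adjusted p under 0.05. Residual SDs had a median of 0.381 for the receptors and 0.355 for all genes. Where no array of a nucleus was well above background, a fold is a lower bound against the lowest signal well above background. The fit was tested on simulated data.

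Receptors named are those called in any comparison, and per family the 2 with the smallest p and the 2 brightest, with any detected on all arrays of 1 nucleus and none of the others; from the transmitter and nicotinic lists, called genes and fixed genes; 2 genes are not reported individually here. The members and lists were chosen with earlier results of these data known. Of the 53 symbols 52 matched RefSeq directly (GRCm38.p6) and Drd1a through a synonym. Probe positions are those of the files (mm9). The deposited series-wide value matrix was not used, because its values run in constant steps. The listed genes other than receptors were not followed under the alternatives.

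Same-numbered samples of different nuclei correlated at 0.053 to 0.155 in their deviations. All differently numbered ones lay lower, at -0.100 to 0.015. The reported fit did not pair samples, and whether same-numbered samples share animals is not known. The alternatives tried were quantile normalization, normexp background correction (offset 50), another percentile, other filters, the mean of a gene's probes, a trended and robust fit, blocks for replicate number or slide row, and each array left out.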

Additional observations from a re-analysis of the deposited data

How the results depend on the processing

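The number of receptor genes called moved by over 1.5 times under 4 alternatives other than leaving out an array. In some comparison it also moved by over 1.5 times without any 1 DMH array, without VMH replicate 2 or 3, and without either Arc array. The cause was not tested. Without a filter it was 1 for Arc against the mean, 2 for VMH against Arc and 1 for DMH against Arc. With the replicate number as a block, which uses up degrees of freedom, it was 1 for Arc and 1 for VMH against Arc (both Htr2c). With the same block it was 3 for VMH and 3 for DMH against VMH (each Htr1b, Htr1a and Chrna9). Whether same-numbered samples belong together is not known. With the slide row as a block it was 1 for DMH and 1 for DMH against Arc. With a trended and robust fit it was 10 for VMH and 8 for DMH against VMH. Leaving out 1 array gave 1 to 3 for DMH, 1 to 6 for VMH, 1 to 2 for Arc, 2 to 6 for DMH against VMH, 1 to 4 for VMH against Arc and 1 to 2 for DMH against Arc. Among the genes and comparisons followed under the alternatives, directions turned for Chrna4 in DMH with the mean of its probes (0.165) and on its further probe (1.2995), for Chrna9 in VMH against Arc (-0.05) and Htr2c in DMH (-0.2885) on a further probe, for Drd3 in DMH without DMH replicate 2 (-0.0639), VMH replicate 1 (-0.0476) or Arc replicate 2 (-0.0475; highest 0.1274 without VMH replicate 2), and for Chrna10 in VMH without Arc replicate 2 (-0.0109; highest 0.4662 without Arc replicate 1). The further-probe values were added after seeing the data, and other comparisons of Htr6, Adra1d, Adrb1, Adrb3, Chrna4, Chrna9, Hrh1 and Htr2c, not followed under the other alternatives, also turned on a further probe. Over all genes, the share of calls that were higher in Arc was 46.2% with normexp, against 31.5% as reported, and for DMH against Arc 47%, against 58.3%. With the probes well above background on all arrays alone these shares were 41.2% and 49.6%, and leaving out 1 array gave 27.8% to 52.8% and 40.6% to 68.4%. Over all alternatives, calls among all genes ran from 40 (without DMH replicate 1) to 318 (normexp) in DMH, against 231 as reported; from 106 (without VMH replicate 1) to 527 (normexp) in VMH, against 368; and from 40 (replicate block) to 288 (without Arc replicate 2) in Arc, against 168. They ran from 113 (without VMH replicate 2) to 499 (normexp) for DMH against VMH, against 337, from 32 (replicate block) to 244 (without Arc replicate 2) for DMH against Arc, against 115, and from 74 (replicate block) to 408 (normexp) for VMH against Arc, against 268. With 2 Arc arrays, a lone Arc sample was assumed to vary like the other nuclei. Dim probes carry only bounds.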
